A study of Mus musculus with 9 samples.

Results

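The 32 genes described here carry out sterol synthesis, cholesterol uptake and transport, and the control of both by SREBP2. They were taken by name from a table of 16755 genes measured in mouse liver, and all 32 were found. Their 3 group means averaged at least 1 in every case, the limit used to define the 11784 genes against which they were set.

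The study asked what stearoyl-CoA desaturase 2 (Scd2), an enzyme that desaturates fatty acids, does in hepatic stellate cells (HSC) during liver tumor formation. RNA-seq covered 9 male mice in 3 groups of 3, on a background given as C57BL/6 in the labels and as C57BL/6J in the study's methods. Scd2f/f mice carry Scd2 with 1 floxed exon and no Cre. Scd2f/f;CC mice carry the same floxed alleles and a Cre recombinase under the Col1a1 promoter, which is active in HSC and portal fibroblasts. Both of these groups received the carcinogen diethylnitrosamine (DEN, 10 mg/kg) at 2 weeks of age, and a Western alcohol diet (WAD) from 6 weeks of age. WAD is a liquid diet that supplies lard and cholesterol together with ethanol. The labels give 4 months of WAD and the study's methods a longer period. The third group was untreated Scd2f/f mice, although a protocol note attached to these samples also names DEN and WAD. The labels call the tissue liver, the study's results describe the samples of treated mice as tumor-adjacent liver (TAL), and its methods for RNA name NTL. All 3 groups share the floxed alleles, and no group carried Cre without DEN + WAD.

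Cells hold sterol levels by feedback. SREBP2 is made as a membrane protein of the endoplasmic reticulum. When sterols are low, the escort protein SCAP carries it to the Golgi, where 2 proteases release its transcription factor domain. When sterols are high, INSIG proteins retain SCAP, and transcription of the sterol synthesis enzymes declines. Oxysterols also activate the LXR receptors, which induce genes of sterol efflux. The liver is a main site of sterol synthesis, uptake and disposal, and hepatocytes form most of its mass.

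Each value below is the authors' mean of a group, a normalized signal in which upper quartiles were set equal between samples. No value of a single mouse was analysed here. The sequencing depth is unknown. The spread between mice was not assessed, since the authors' own p-values were not used, and no test could be run on the means. A gene is counted as higher or lower at a ratio of at least 2 between 2 group means, with 1.5 and 4 as further limits. In bulk tissue, fewer cells of a type and less RNA per cell cannot be told apart. Scd2 itself had an authors' mean of 2.46 in untreated liver, 6.47 in Scd2f/f DEN + WAD liver and 1.87 in Scd2f/f;CC DEN + WAD liver. Its mean was thus 3.46-fold lower with Cre among DEN + WAD livers, in the direction of the genotype labels. Albumin (Alb), the main hepatocyte product, had means of 21300, 20900 and 22700 in the same order.

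Promoter sequences are shown for 6 genes because they span much of the range of ratios seen after DEN + WAD. These genes are 4 synthesis enzymes and the paired regulators Insig1 and Insig2, whose means differed in opposite directions. Each runs 5′ to 3′ on the gene's strand, from 250 bases before to 50 bases after a RefSeq transcription start (GRCm38.p6), and the first listed start is used. RefSeq starts can differ from those of other annotations. Capitals mark the CCAAT box, the letters bound by NF-Y (a cofactor of SREBP2), as CCAAT or its reverse complement ATTGG. In Hmgcs1 they also mark TCACNCCAC, a form of the sterol response element.
Hmgcs1: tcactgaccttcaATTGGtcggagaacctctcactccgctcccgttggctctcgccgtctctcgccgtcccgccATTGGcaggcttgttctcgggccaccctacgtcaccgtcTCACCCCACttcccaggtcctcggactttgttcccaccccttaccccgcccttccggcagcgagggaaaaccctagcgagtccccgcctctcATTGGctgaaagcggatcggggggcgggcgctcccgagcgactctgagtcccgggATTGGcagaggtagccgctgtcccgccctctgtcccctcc
Idi1: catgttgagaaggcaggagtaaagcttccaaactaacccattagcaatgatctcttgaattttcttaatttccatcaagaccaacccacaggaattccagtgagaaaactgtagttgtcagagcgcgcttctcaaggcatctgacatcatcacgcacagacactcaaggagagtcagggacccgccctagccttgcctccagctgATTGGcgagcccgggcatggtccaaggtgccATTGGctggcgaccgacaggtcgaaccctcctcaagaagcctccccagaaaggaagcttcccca
Msmo1: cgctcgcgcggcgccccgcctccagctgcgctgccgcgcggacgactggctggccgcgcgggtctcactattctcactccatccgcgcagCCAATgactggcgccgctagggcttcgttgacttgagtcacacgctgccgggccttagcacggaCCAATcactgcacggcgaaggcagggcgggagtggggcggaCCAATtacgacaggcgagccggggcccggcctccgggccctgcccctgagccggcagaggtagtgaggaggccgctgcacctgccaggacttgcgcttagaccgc
Cyp51: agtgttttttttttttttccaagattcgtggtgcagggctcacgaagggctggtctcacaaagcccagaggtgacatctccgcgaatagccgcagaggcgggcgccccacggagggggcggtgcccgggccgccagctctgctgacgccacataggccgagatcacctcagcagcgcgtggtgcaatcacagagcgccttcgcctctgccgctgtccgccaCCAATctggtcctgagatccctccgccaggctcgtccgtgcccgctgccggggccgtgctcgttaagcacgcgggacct
Insig1: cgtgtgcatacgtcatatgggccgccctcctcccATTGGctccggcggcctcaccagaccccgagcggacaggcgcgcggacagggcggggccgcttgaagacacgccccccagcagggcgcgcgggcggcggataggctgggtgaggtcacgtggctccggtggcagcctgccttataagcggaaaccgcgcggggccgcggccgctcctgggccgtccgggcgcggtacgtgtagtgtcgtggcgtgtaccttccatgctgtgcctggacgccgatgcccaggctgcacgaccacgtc
Insig2: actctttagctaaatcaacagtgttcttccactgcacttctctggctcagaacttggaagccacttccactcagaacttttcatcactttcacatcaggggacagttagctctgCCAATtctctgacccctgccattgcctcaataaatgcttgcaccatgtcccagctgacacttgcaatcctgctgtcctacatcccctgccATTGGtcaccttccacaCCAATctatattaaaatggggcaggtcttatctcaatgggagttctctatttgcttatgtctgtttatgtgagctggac
The Hmgcs1 window lies at chr13:119690101-119690400, plus strand, and the Idi1 window at chr13:8885356-8885655, plus strand. The Msmo1 window is chr8:64733529-64733828, minus strand, and the Cyp51 window is chr5:4104648-4104947, minus strand. Insig1 was read from chr5:28071162-28071461, plus strand, and Insig2 from chr1:121332540-121332839, minus strand.

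RefSeq promoters were available for 25 of the 32 genes, and those of Fdps, Fdft1, Sqle, Stard4, Npc1, Soat2 and Abcg1 were not used here. Both strands were searched. The looser sterol element contains the stricter one, and neither match in these genes overlapped a CCAAT box. TCACNCCAC was found in 1 of the 25, Hmgcs1, at positions -137 to -129 from the start. It was present in 1.51% of the 8782 genes that passed the limit of 1 and had a promoter. Counted by promoter, it was in 1.24% of all 32851 RefSeq promoters of the same length. With a further free base (TCACNCNAC) it was found in 2 of 25, Hmgcs1 and Nsdhl, in 3.4% of the 8782 genes and in 2.7% of all promoters. CCAAT was found in 22 of the 25 genes, or 88.0%, with all starts of a gene searched. Among the 8782 genes that passed the limit of 1 and had a promoter, 43.1% held it, as did 37.4% of all promoters. Abca1, Acat2 and Scap were the 3 without it. In Msmo1 it occurred at -160, -96 and -55, in Cyp51 at -29, in Idi1 at -45 and -14 and in Hmgcs1 at -237, -176, -45 and 11. The window of Insig1 held it once, at -216, and that of Insig2 3 times, at -136, -46 and -29. A match is a description of the letters and not a shown binding site.

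The first comparison set Scd2f/f DEN + WAD liver against untreated Scd2f/f liver. Sterol synthesis enzymes were lower after DEN + WAD. All 19 synthesis enzymes had a lower mean, 16 of them at least 2-fold and 15 at least 4-fold, and their median ratio was 5.51-fold lower. Over all 32 genes, 18 were at least 2-fold lower and 3 at least 2-fold higher. Of the 11784 genes, 2.89% were at least 2-fold lower and 6.4% at least 2-fold higher. At the limit of 4-fold, 16 of the 32 were lower and none higher, against 0.67% lower and 1.57% higher of all genes. With a pseudocount of 1, Mvd and Mvk among these 16 did not reach 4-fold. At 1.5-fold, 21 were lower and 3 higher, against 8.6% and 12.8%. The median log2 ratio was -1.70 over the 32 genes and 0.03 over all genes. Just inside the limit of 2 was Acat2, 2.30-fold lower, and just outside it was Srebf2, 1.98-fold lower.

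**Figure D1:**
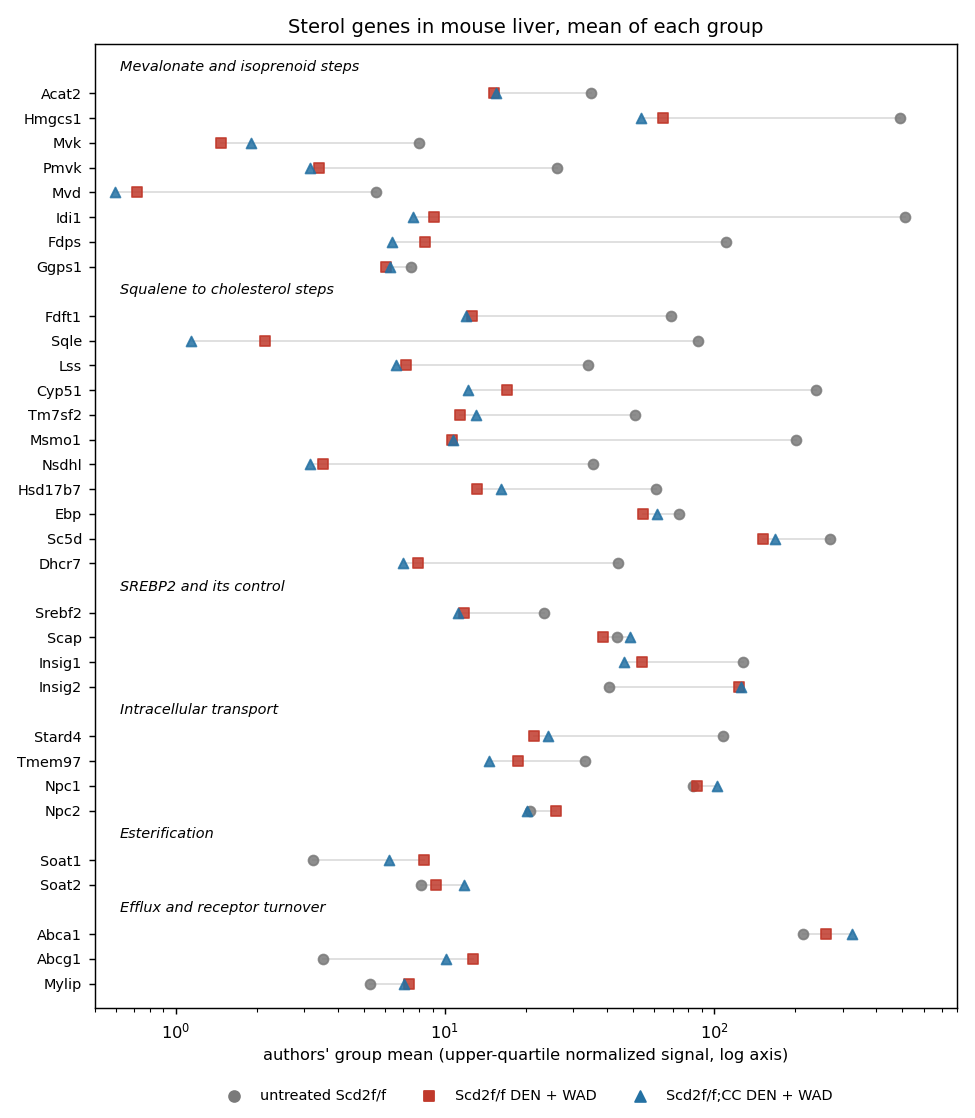
Authors' mean of each group (normalized signal, log axis) for the 32 sterol genes, ordered by role, with no error bars since single mice were not analysed. Untreated liver (circles) lies right of both DEN + WAD groups (squares, triangles) for all 19 synthesis enzymes, while Insig2, Soat1 and Abcg1 lie the other way.

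The mevalonate steps turn acetyl-CoA into isoprenoid building blocks. Of these 8 genes, 7 were at least 2-fold lower after DEN + WAD, against 2.89% of all genes. Idi1, the isomerase of isopentenyl diphosphate (chr13:8885501-8892451, GENCODE M21 on GRCm38), had an authors' mean of 510 in untreated liver, 9.12 in Scd2f/f DEN + WAD liver and 7.63 in Scd2f/f;CC DEN + WAD liver. Both DEN + WAD groups were thus far below untreated liver, Scd2f/f by 55.9-fold. Of the 11784 genes, 12 including Idi1 had a ratio as low. Hmgcs1, the cytosolic HMG-CoA synthase, had means of 488, 64.8 and 53.4, and was 7.53-fold lower in Scd2f/f DEN + WAD liver. Fdps, which makes farnesyl diphosphate at the branch point, had means of 111, 8.41 and 6.34 and was 13.2-fold lower. These 3 genes had the highest levels per kilobase of exon of the mevalonate group in untreated liver.

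The 3 enzymes that carry mevalonate to isopentenyl diphosphate were all at least 4-fold lower by the means as given. With a pseudocount of 1 the log2 ratios of Mvd and Mvk were -1.93 and -1.86, under the limit of 4-fold. The kinase Pmvk had means of 26.1, 3.42 and 3.16 and was 7.63-fold lower in Scd2f/f DEN + WAD than in untreated liver. The decarboxylase Mvd had means of 5.54, 0.716 and 0.596 and was 7.74-fold lower. The kinase Mvk had means of 7.98, 1.47 and 1.90 and was 5.43-fold lower. Acat2, a cytosolic acetoacetyl-CoA thiolase that opens the pathway, had means of 35.0, 15.2 and 15.5. Its ratio of 2.30-fold was smaller than that of any of the 6 genes above. Ggps1, which leads out of sterol synthesis to geranylgeranyl diphosphate, had means of 7.47, 6.05 and 6.24, a ratio of 1.23-fold lower, and did not reach either limit.

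The second stretch of the pathway joins farnesyl units into squalene and converts squalene to cholesterol. Of these 11 genes, 9 were at least 2-fold lower, against 2.89% of all genes. The median of the 11 was 5.47-fold lower. Sqle, the squalene epoxidase and a rate-limiting step (chr15:59315077-59331192), had means of 87.3 in untreated liver, 2.14 in Scd2f/f DEN + WAD liver and 1.14 in Scd2f/f;CC DEN + WAD liver. Its ratio of 40.8-fold lower was second to that of Idi1 among the 32. Msmo1, the sterol C4-methyl oxidase, had means of 202, 10.6 and 10.7 and was 19.1-fold lower. Cyp51, the lanosterol 14-alpha demethylase, had means of 238, 17.0 and 12.2 and was 14.0-fold lower. Both therefore had means above 200 in untreated liver and below 20 in each DEN + WAD group.

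Nsdhl, which acts with Msmo1 in removing C4 methyl groups, had means of 35.4, 3.53 and 3.16 and was 10.0-fold lower. Hsd17b7, the ketoreductase of the same complex, had means of 61.0, 13.2 and 16.2 and was 4.62-fold lower. The 3 genes of C4 demethylation thus all passed 4-fold. Fdft1, the squalene synthase, had means of 68.9, 12.6 and 12.0 and was 5.47-fold lower. Lss, which closes the sterol rings, had means of 34.1, 7.17 and 6.58 and was 4.76-fold lower. Tm7sf2, a sterol C14 reductase, had means of 50.8, 11.4 and 13.0 and was 4.46-fold lower.

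The last steps differed among themselves. Dhcr7, the reductase that ends one branch with cholesterol, had means of 43.8, 7.95 and 7.0 and was 5.51-fold lower in Scd2f/f DEN + WAD than in untreated liver. Sc5d, the desaturase just before it, had means of 270, 152 and 168 and was 1.78-fold lower, past 1.5-fold only. Ebp, the sterol isomerase before Sc5d, had means of 74.1, 54.5 and 61.1, a ratio of 1.36-fold lower. Ebp and Sc5d are the 2 genes of this stretch that did not reach 2-fold.

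Among the regulators, Insig1 and Insig2 stood on opposite sides. Both encode proteins that retain the SCAP-SREBP complex. Insig1, itself a known SREBP target, had means of 128 in untreated liver, 54.1 in Scd2f/f DEN + WAD liver and 46.1 in Scd2f/f;CC DEN + WAD liver, 2.37-fold lower in Scd2f/f DEN + WAD liver. Insig2 (chr1:121304353-121332589) had means of 40.8, 124 and 126, 3.04-fold higher in Scd2f/f DEN + WAD liver. The order of the pair therefore turned over, with Insig1 above Insig2 in untreated liver and below it in both DEN + WAD groups, also per kilobase of exon (41.4 against 11.7 in untreated liver, 17.5 against 35.7 in Scd2f/f DEN + WAD liver). Srebf2, which encodes SREBP2 (chr15:82147181-82205379), had means of 23.4, 11.8 and 11.2. Scap, the escort, had means of 43.7, 38.7 and 48.8, and neither DEN + WAD group was 1.5-fold from untreated liver.

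The genes of sterol movement inside the cell were mixed. Stard4, a cytosolic sterol carrier and known SREBP2 target, had means of 108, 21.5 and 24.1 and was 5.02-fold lower. It was the only one of the 4 transport genes past 2-fold in this comparison. Tmem97, an endoplasmic reticulum protein that binds NPC1, had means of 33.1, 18.7 and 14.6 and was 1.77-fold lower. Npc1 and Npc2 encode the pair that moves cholesterol out of lysosomes. Npc1 had means of 83.6, 86.2 and 102, and Npc2 had means of 20.7, 25.8 and 20.1. Neither reached 1.5-fold.

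Of the 5 genes of esterification, efflux and receptor turnover, 2 were at least 2-fold higher in Scd2f/f DEN + WAD than in untreated liver. The share of all genes was 6.4%. The other 3 genes stayed under 1.5-fold. The 3 also had higher means, as did 6216 of the 11784 genes. Soat1, the cholesterol acyltransferase of most cell types, had means of 3.23, 8.38 and 6.18 and was 2.59-fold higher. Soat2, the acyltransferase typical of hepatocytes and enterocytes, had means of 8.17, 9.30 and 11.8, a ratio of 1.14-fold. Per kilobase of exon, Soat1 was below Soat2 both in untreated liver (0.33 against 3.69) and in Scd2f/f DEN + WAD liver (0.856 against 4.2). Abcg1, an exporter of cholesterol to lipoprotein particles, had means of 3.53, 12.7 and 10.1 and was 3.60-fold higher, the largest ratio upward among the 32. Abca1, the exporter to lipid-poor apolipoproteins, had means of 214, 261 and 325. Mylip, a ubiquitin ligase that degrades lipoprotein receptors, had means of 5.29, 7.34 and 7.07. Abca1 and Mylip stayed under 1.5-fold, at 1.22-fold and 1.39-fold higher.

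**Figure D2:**
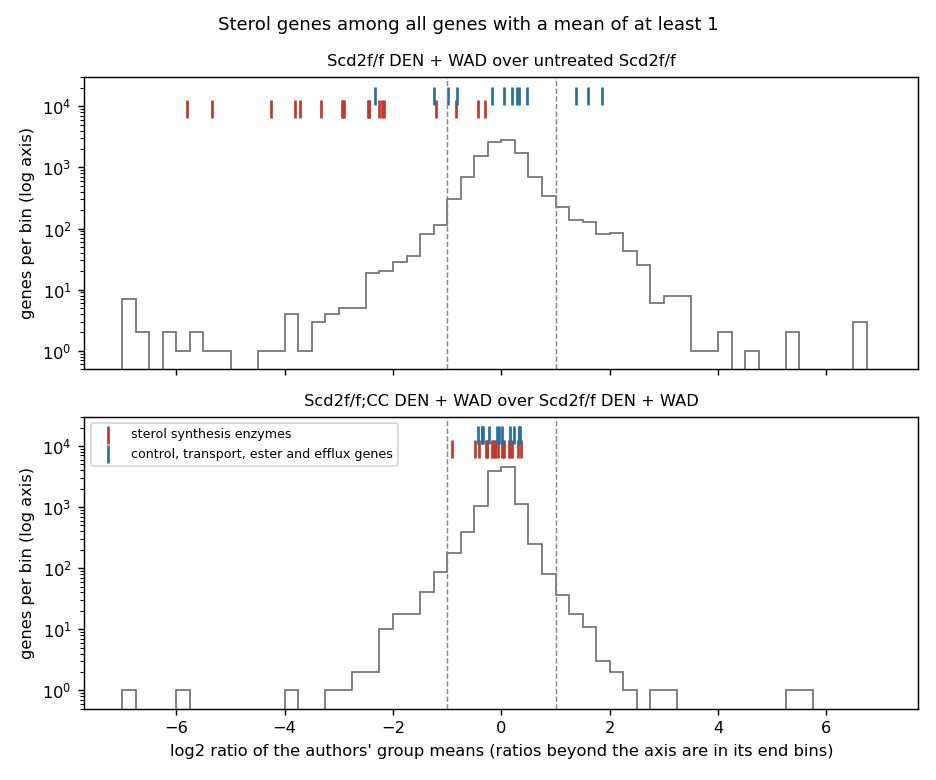
Number of genes (log axis) by log2 ratio of the group means for the 11784 genes that passed the limit of 1 (outline), with synthesis enzymes (red ticks) and the other sterol genes (blue ticks) above, and dashed lines at 2-fold. The upper panel shows Scd2f/f DEN + WAD over untreated liver, with synthesis enzymes from -5.81 to -0.30, and the lower panel Scd2f/f;CC over Scd2f/f, both DEN + WAD, with all 32 genes from -0.91 to 0.37.

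The second comparison set Scd2f/f;CC against Scd2f/f liver, both after DEN + WAD, to see how loss of Scd2 in Col1a1-expressing cells relates to these genes. None of the 32 differed by 2-fold in either direction. Of all genes, 1.54% were at least 2-fold lower and 0.645% at least 2-fold higher. At 1.5-fold, 1 of the 32 was lower and none was higher, against 4.9% and 2.35% of all genes. That gene was Sqle, with means of 2.14 without and 1.14 with Cre, a ratio of 1.88-fold lower. With a pseudocount of 1 its log2 ratio was -0.55 in place of -0.91, under the limit of 1.5-fold. The median log2 ratio was -0.07 over the 32 genes and 0.01 over all genes. The ratios were lower for 18 and higher for 14 of the 32, and lower for 5698 and higher for 5957 of the 11784 genes.

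By role, the 19 synthesis enzymes had a median log2 ratio of -0.11, with 11 lower and 8 higher. After Sqle, the lowest were Cyp51, with means of 17.0 without and 12.2 with Cre (1.39-fold lower), and Fdps, with means of 8.41 and 6.34 (1.33-fold lower). The highest synthesis enzymes were Mvk, with means of 1.47 and 1.90 (1.29-fold higher), and Hsd17b7, with means of 13.2 and 16.2 (1.23-fold higher). Soat1 was 1.36-fold lower and Abcg1 1.26-fold lower with Cre, while Soat2 was 1.27-fold higher and Abca1 1.25-fold higher. Insig2 had nearly equal means in the 2 genotypes, and Msmo1 likewise. Whether any of these ratios exceeds the spread between mice was not tested.

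The third comparison set Scd2f/f;CC DEN + WAD liver against untreated Scd2f/f liver. It shares the untreated mice with the first and the Scd2f/f;CC mice with the second, so its values are not independent of theirs. Of the 32 genes, 20 were at least 2-fold lower and 2 at least 2-fold higher, against 2.55% and 4.51% of all genes. The median log2 ratio was -1.69 over the 32 and 0.04 over all genes. Sqle was 76.6-fold lower and Idi1 66.8-fold lower. With a pseudocount of 1 their log2 ratios were -5.37 and -5.89, so that the order of these 2 genes turned over. Srebf2 at 2.09-fold lower and Tmem97 at 2.27-fold lower passed the limit here and not in the first comparison. Centred on the median ratio of all genes, Srebf2 passed it in the first comparison too, at a log2 ratio of -1.02. Soat1, at 1.91-fold higher, passed it in the first comparison and not here. Insig2 was 3.09-fold and Abcg1 2.86-fold higher than in untreated liver.

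**Figure D3:**
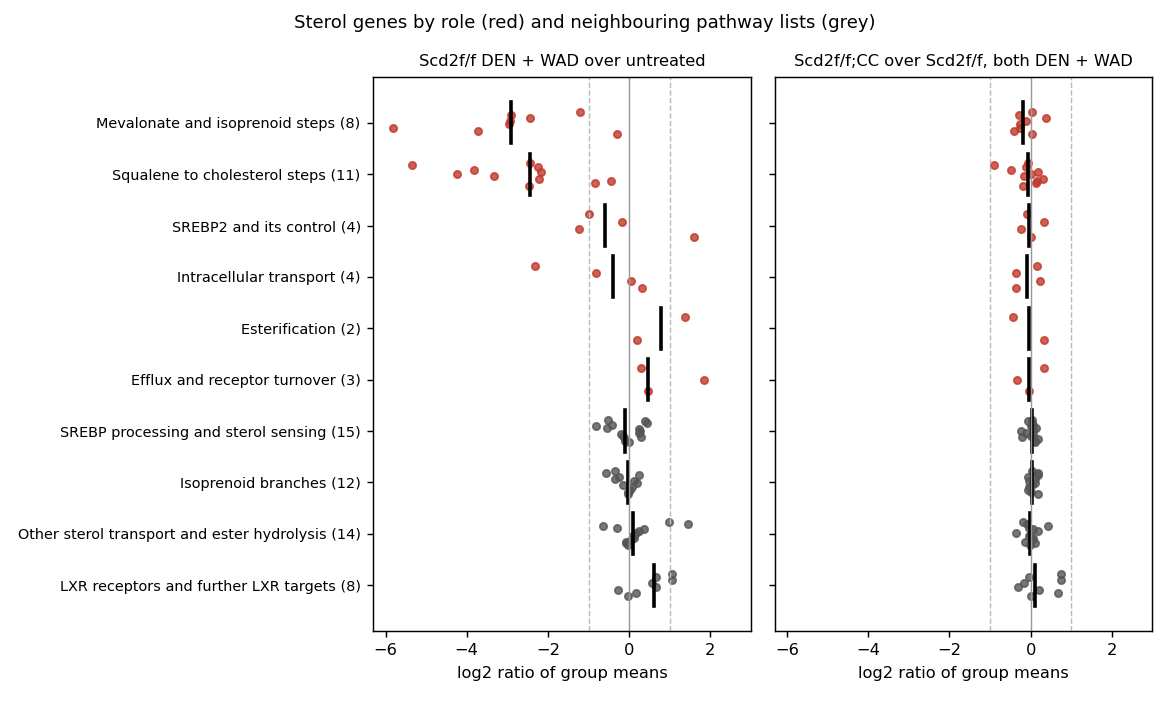
Log2 ratio of the group means for each sterol gene by role (red points) and for the genes of 4 neighbouring pathway lists (grey points), with the number of genes in parentheses, black bars at the list medians and dashed lines at 2-fold. In the left panel (Scd2f/f DEN + WAD over untreated) the medians of the mevalonate and squalene steps are -2.92 and -2.45, and in the right panel (Scd2f/f;CC over Scd2f/f, both DEN + WAD) all 10 medians lie between -0.19 and 0.11.

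Other genes of the pathway were examined by 4 lists. The machinery that senses sterols and processes SREBP, such as the proteases Mbtps1 and Mbtps2 and the coat proteins of the Sec23 and Sec24 families, comprised 15 genes. None of the 15 reached 2-fold in any comparison, and the median log2 ratio was -0.10 in Scd2f/f DEN + WAD against untreated liver. The branches that lead from isoprenoids to ubiquinone, dolichol and prenylated proteins comprised 12 genes, none of which reached 2-fold, with a median of -0.03. In that comparison 2.89% of all genes were at least 2-fold lower and 6.4% at least 2-fold higher. The shares were smaller in the other comparisons, so lists of this size would hold few such genes or none. The gene of these 2 lists farthest from even in that comparison was Sec23b, with means of 37.5, 21.3 and 21.6, which was 1.76-fold lower.

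Of 14 further genes of sterol transport and ester hydrolysis, 1 was at least 2-fold higher in Scd2f/f DEN + WAD than in untreated liver, a share near the 6.4% of all genes. Gramd1b, which moves cholesterol from the plasma membrane, had means of 1.18 in untreated, 3.20 in Scd2f/f DEN + WAD and 3.03 in Scd2f/f;CC DEN + WAD liver. Lipa, the lysosomal acid lipase that frees cholesterol from its esters, had means of 83.4, 164 and 144, just under the limit at 1.97-fold higher in Scd2f/f DEN + WAD liver. Of 8 LXR receptors and further LXR targets, 2 were at least 2-fold higher in the same comparison, against the same 6.4%. Abcg5 had means of 28.3, 59.2 and 99.0, and Abcg8 had means of 32.7, 67.6 and 114. These 2 encode the paired exporter that sends sterols into bile, and they were 2.09-fold and 2.07-fold higher in Scd2f/f DEN + WAD than in untreated liver. With Cre they were 1.67-fold and 1.69-fold higher again. The genes of the pair overlap on opposite strands, so their reads cannot be fully told apart. Srebf1, which encodes the SREBP of fatty acid synthesis, had means of 60.3, 67.7 and 108, so that it was 1.60-fold higher with Cre, while Srebf2 was 1.05-fold lower. Of the receptors themselves, Nr1h3 (LXR-alpha) had means of 33.5, 32.5 and 32.7. Nr1h2 (LXR-beta) had means of 7.80, 11.4 and 10.1 and was 1.46-fold higher in Scd2f/f DEN + WAD than in untreated liver.

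To compare levels between genes, each mean was divided by the kilobases of merged exons in GENCODE M21. In untreated liver, Idi1 had the highest level per kilobase of the 32, 146, followed by Hmgcs1 at 106, Sc5d at 55.5 and Cyp51 at 53.9. With the longest transcript as length, Idi1 and Hmgcs1 were again first and second, and Msmo1 came next at 68.0 (32.9 with merged exons), before Cyp51 at 60.5 and Sc5d at 56.4. In Scd2f/f DEN + WAD liver the highest was Insig2 at 35.7 per kilobase, followed by Sc5d at 31.2, Abca1 at 25.2 and Ebp at 23.6. Idi1 was 16th there, at 2.6 per kilobase. In Scd2f/f;CC DEN + WAD liver the first 4 were the same genes, Insig2 at 36.3, Sc5d at 34.5, Abca1 at 31.4 and Ebp at 26.5 per kilobase. The order of neighbours with close levels was not set against the spread between mice.

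**Figure D4:**
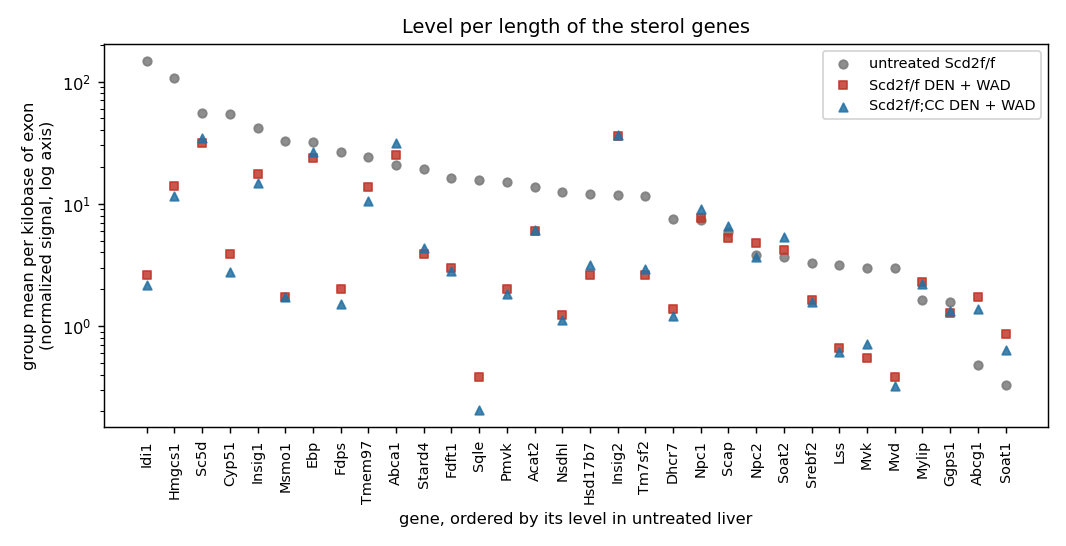
Group mean per kilobase of merged exon (normalized signal, log axis) for the 32 sterol genes, ordered by their level in untreated liver, with circles for untreated, squares for Scd2f/f DEN + WAD and triangles for Scd2f/f;CC DEN + WAD liver and no error bars. The leading gene is Idi1 at 146 in untreated liver and Insig2 at 35.7 and 36.3 in the DEN + WAD groups.

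Some of the 32 genes share sequence with other genes, so that reads could be divided between them by the authors' counting. Transcripts of 9 genes matched another gene's transcript at 90% identity or more over at least 200 bases, and 5 of these had processed pseudogenes. Idi1 matched the pseudogene Gm13502 at 100% over 684 bases, and Gm13502 had means of 56.7, 1.15 and 0.849, 49.3-fold lower in Scd2f/f DEN + WAD than in untreated liver. Fdps matched the pseudogene Gm3571 at 98.9% over 1062 bases, with means of 1.68, 0.0831 and 0.141. Acat2 matched Acat3 at 97.7% over 1477 bases, and Acat3 had means of 84.7, 120 and 132. Fdft1 overlaps Ctsb on the other strand over 774 transcript bases, and Ctsb had means of 167, 331 and 278, while the library kit does not keep strand. Cyp51, Mvd, Tm7sf2 and Insig2 also lie over another gene of the table. Among the 19 genes with no such match or overlap, 10 were at least 2-fold lower and 2 at least 2-fold higher in Scd2f/f DEN + WAD liver. The shares of all genes were 2.89% and 6.4%. The median log2 ratio of the 19 genes was -1.24.

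Other differences moved with the comparisons to untreated liver. A list of 15 skeletal muscle genes, chosen after their values were seen, had a summed mean of 73.9 in untreated liver, 0.985 in Scd2f/f DEN + WAD and 0.762 in Scd2f/f;CC DEN + WAD liver. All 15 were lower in both DEN + WAD groups, several at 0.0348, the lowest mean in the table, in Scd2f/f DEN + WAD liver. All 15 were at least 4-fold lower in Scd2f/f DEN + WAD liver. The 10 with a mean of at least 1 were among the 79 genes counted at that limit, beside 16 sterol genes. Those 10 reached a mean of at least 1 only through untreated liver, so their count at that limit was fixed in advance. Of 18 circadian clock genes, also chosen after seeing values, 3 were at least 2-fold lower and 3 at least 2-fold higher in Scd2f/f DEN + WAD than in untreated liver. The shares of all genes were 2.89% and 6.4%. Npas2, which was among the 3 higher, averaged 0.365 over the groups and so fell below the limit of 1. Without that limit the shares were 4.69% and 9.37%. Per2 had means of 16.3, 5.70 and 6.65, and Arntl had means of 0.471, 2.17 and 3.17. The hour of collection is not given in the sources used here. The part of muscle RNA and of clock phase in the sterol values was not tested.

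Markers of other cells were also compared. All 10 macrophage markers were at least 2-fold higher in Scd2f/f DEN + WAD than in untreated liver, against 6.4% of all genes. Trem2 did not reach the limit of 1 behind that share, which was 9.37% without the limit. The summed means of the 10 markers were 106, 423 and 337 in the usual order of groups. Abcg1 and Soat1, which macrophages express, were higher in the same groups, and the macrophages' part in this was not tested. Of 6 hepatocyte markers, 5 stayed within 2-fold, and Tat, a tyrosine aminotransferase, had means of 499, 181 and 305. The 8 markers of stellate cells and portal fibroblasts summed to 130, 223 and 128. All 8 were lower in Scd2f/f;CC than in Scd2f/f DEN + WAD liver, as were 5698 of the 11784 genes. The 5 endothelial markers summed to 91.2, 123 and 125. The 4 cholangiocyte markers summed to 6.37, 8.04 and 4.31 and the 5 lymphocyte markers to 0.832, 2.96 and 2.01, both low. Sums can hide single genes. In Scd2f/f DEN + WAD against untreated liver, 3 stellate and fibroblast, 2 endothelial and 4 lymphocyte markers were also at least 2-fold higher. The shares are those given for the macrophage markers, and all lymphocyte markers had a mean under 1. No hepatocyte or cholangiocyte marker was at least 2-fold higher. With Cre, 2 macrophage, 4 stellate and fibroblast, 3 cholangiocyte and 1 lymphocyte markers were at least 2-fold lower among DEN + WAD livers. The share was 1.54% of the 11784 genes, and 4.07% of all 16755 when the limit of 1 was dropped. Of these markers, Trem2, Krt7, Krt19 and Cd3e fell below that limit, averaging 0.837, 0.392, 0.567 and 0.674 over the groups. No marker was at least 2-fold higher with Cre. Gpnmb was 14.1-fold and Krt7 4.89-fold lower, both at low means with Cre (0.638 and 0.0892).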

How the data were processed

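RNA was extracted with a PicoPure kit, libraries were made with the unstranded TruSeq v2 kit and sequenced by the authors on a NextSeq instrument. Per the submitters' notes STAR 2.6.1, Partek 6 and mm10 were used. Reads were assigned to Gencode M3 by the Partek E/M method, normalized to the upper quartile and compared by Gene Specific Analysis. The deposited table gives the signal of each of 3 groups, which is the authors' least-squares mean of normalized counts to 3 significant digits. It also holds the authors' p-values, FDR, ratios and fold changes of 2 comparisons, which were not used. Genes were kept at a mean of at least 1 over the groups. Upper-quartile scaling sets each gene relative to the others, and E/M assignment can divide reads between copies.

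The 32 genes and the lists were chosen with earlier results of these data known. Those named are all 32, Scd2, list genes past 2-fold, and the markers and copies that results touch. Sec23b, Lipa, Srebf1, Nr1h2, Nr1h3, Tat, the muscle and clock genes were named after their values were seen. Tests over samples, planned for single-sample values, could not be run on group means. Members were matched to GENCODE M21 by symbol, and 32 of 32 overlapped the gene of that name. Copies were found with blastn. Counts of folds were tested on simulated means. Alternatives were other fold limits, pseudocounts of 0.1 and 1, filters and centring. The software was Python 3.11.15, NumPy 2.4.6, pandas 2.3.3 and Matplotlib 3.10.9.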

Additional observations from a re-analysis of the deposited data

How the results depend on the processing

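No paired analysis was possible because only group means were used, which carry no replicate number, and for the same reason no sample could be left out. In Scd2f/f DEN + WAD against untreated liver, the median log2 ratio of the 32 genes was -1.70, -1.54 with a pseudocount of 1, and -2.21 among the 25 with a mean of at least 10. In Scd2f/f;CC DEN + WAD against untreated liver it was -1.69, -1.54 and -1.97. In the comparison of genotypes, 1 gene passed at a limit of 1.5-fold and none at 2-fold. The 19 genes without a copy or an overlap, chosen after seeing the data, were also counted alone at 2-fold against untreated liver. In Scd2f/f DEN + WAD liver 10 were lower and 2 higher, against 2.89% and 6.4% of all genes. In Scd2f/f;CC DEN + WAD liver 11 were lower and 1 higher, against 2.55% and 4.51%. The looser sterol element was found in 2 promoters and the stricter in 1. The signs of genes past 2-fold were not put to a test by these settings. A pseudocount cannot change the sign of a ratio, and the medians used for centring were only 0.03, 0.01 and 0.04. With a pseudocount of 1, 12 of the 32 log2 ratios moved by over 0.1 in Scd2f/f DEN + WAD against untreated liver. With the longest transcript in place of merged exons, 3 of 32 genes moved by over 3 ranks in untreated liver. Centring counted 19 genes at least 2-fold lower in place of 18 in Scd2f/f DEN + WAD against untreated liver. Depth is unknown and the spread between mice was not assessed, so no value here has an error.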
